A study of Mus musculus with 4 samples.

Results

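The chemokine ligand genes Ccl1, Ccl3, Ccl4, Ccl5, Ccl17, Ccl22, Cxcl2, Cxcl10, Cxcl16 and Xcl1 were taken from the RNA-Seq count table by their symbols, which gave 10 of the 27179 genes listed. ILC2s, lymphocytes that lack antigen receptors and release type 2 cytokines, had been sorted from the large intestine of WT C57BL/6 mice as lineage-negative cells carrying CD127 and KLRG1. All libraries came from cells cultured for 5 days with the cytokines IL-33, IL-25, IL-7 and IL-2, each at 10 ng/mL, and the methods give an age of 6 to 8 weeks for the mice in one section and a higher upper limit in another. The cells then received either vehicle or 100 μM deoxycholic acid (DCA), a secondary bile acid made by gut bacteria, for 24 hours by the methods and 16 hours by the deposited design text. There were 2 vehicle and 2 DCA libraries, called replicates 1 and 2 of each treatment. Nothing in the sources says that the replicates came from separate cultures or animals, so p-values measure only the spread between these libraries, which may be technical.

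Chemokines are small secreted proteins that bind G protein-coupled receptors and direct the movement of leukocytes. They are named by the spacing of their first cysteines, which are neighbours in CC chemokines, are separated by another residue in CXC chemokines, and are reduced to a lone cysteine in XCL1. In the gut wall, chemokines from macrophages, epithelial cells and lymphocytes draw in neutrophils, monocytes, eosinophils and T cells. ILC2s have been described as a source of several of them, which is the reason for grouping these 10 genes.

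The cysteine pair that separates the families is shown for a detected and a barely detected or undetected gene of each, with its codons in capitals and read 5′ to 3′ along the gene. The stretches lie on GRCm38, in exon 2 of 3 at chr11:83648634-83648675 (minus strand) for Ccl3 and chr11:83663464-83663505 (plus strand) for Ccl4, and in exon 2 of 4 at chr5:90904124-90904168 (plus strand) for Cxcl2 and chr5:92348163-92348207 (minus strand) for Cxcl10.
Ccl3: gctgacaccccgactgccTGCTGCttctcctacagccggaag
Ccl4: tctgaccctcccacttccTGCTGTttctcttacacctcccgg
Cxcl2: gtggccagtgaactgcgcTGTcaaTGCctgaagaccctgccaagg
Cxcl10: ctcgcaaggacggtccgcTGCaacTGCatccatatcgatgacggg
The paired codons begin at codon 34 in Ccl3 and Ccl4, at codon 36 in Cxcl2 and at codon 30 in Cxcl10. Whole coding sequences were 68.1% identical between Ccl3 and Ccl4, whose transcripts share no run longer than 9 bases. Cxcl2 and its neighbour Cxcl3 were 89.7% identical and their transcripts share a run of 110 bases, so reads of this pair can be hard to assign.

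The 250 bases before the RefSeq start (GRCm38.p6) are shown for the member with the highest RNA level, the member found in every library and a member found in none, at chr11:83649379-83649628 (minus strand), chr5:90903649-90903898 (plus strand) and chr5:92348890-92349139 (minus strand). Capitals mark matches to κB, the site bound by NF-κB, and to a paired half-site of interferon-regulated genes (GAAA, a gap of 2 bases, GAAA).
Ccl3: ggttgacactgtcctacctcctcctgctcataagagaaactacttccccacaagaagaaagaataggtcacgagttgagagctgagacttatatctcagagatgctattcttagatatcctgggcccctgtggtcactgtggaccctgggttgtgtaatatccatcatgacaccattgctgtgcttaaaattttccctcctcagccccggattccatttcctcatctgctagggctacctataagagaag
Cxcl2: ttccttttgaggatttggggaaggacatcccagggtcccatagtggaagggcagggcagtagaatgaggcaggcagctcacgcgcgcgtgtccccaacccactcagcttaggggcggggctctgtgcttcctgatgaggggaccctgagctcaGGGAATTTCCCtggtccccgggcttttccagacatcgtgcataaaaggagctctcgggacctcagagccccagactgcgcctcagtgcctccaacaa
Cxcl10: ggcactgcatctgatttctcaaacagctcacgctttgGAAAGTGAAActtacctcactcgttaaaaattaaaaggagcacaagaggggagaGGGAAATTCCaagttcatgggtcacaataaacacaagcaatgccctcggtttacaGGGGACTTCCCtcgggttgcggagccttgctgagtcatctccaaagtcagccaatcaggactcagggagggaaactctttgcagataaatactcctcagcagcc
Both strands were searched, and overlapping matches were merged in the capitals. A κB match begins 97 bases before the start of Cxcl2, matches begin 159 and 104 bases before that of Cxcl10, and the interferon match of Cxcl10 begins 213 bases before it. Of 32851 mouse promoters of the same length, 7.25% held a κB match, 2.98% the interferon pair, 5.85% a STAT site (TTC, a gap of 4 bases, GAA) and 12.4% TATAAA. The Ccl3 window held none of these 4 letter patterns, Ccl1 had a κB match 196 bases before its start, and Ccl17 had a STAT match 154 bases before its start. The promoter table held 7 of the 10 genes, with Ccl4, Ccl5 and Cxcl16 not analysed here, and none of the 4 patterns lay in the windows of Ccl22 and Xcl1. A match describes letters and not a bound site.

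Counts summed to between 26564059 and 35838342 in vehicle replicates 1 and 2 and DCA replicate 1, and to 244165712 in DCA replicate 2, which was 6.81 to 9.19 times deeper than the others. Levels are given as CPM, counts per 1000000 counts of a library, scaled with edgeR's TMM method. A count of 0 allows up to 3 counts, or 0.0821 and 0.115 CPM in vehicle replicates 1 and 2, 0.0929 CPM in DCA replicate 1 and 0.0125 CPM in DCA replicate 2. These limits, and the Poisson intervals given for single libraries, cover counting error only, since reads copied by PCR carried no identifier of their molecule of origin.

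Most of the 10 genes were barely transcribed or not found in these cells, so their grouping as ligands made by ILC2s held for only a few members here. Ccl3 and Cxcl2 reached a mean of 1 CPM over the libraries, the level required for testing, which 41.1% of all genes in the table reached. Cxcl2 was the member with counts in all 4 libraries, which 38.4% of all genes had. Ccl1 and Ccl3 had counts in 2 and 3 libraries, Ccl4, Ccl5, Cxcl16 and Xcl1 in 1 library, and Ccl17, Ccl22 and Cxcl10 in none. Of all genes in the table, 14.3% had counts in 1 library only and 12.4% in 2 or 3 libraries, against 40% and 20% of the members. A count of 0 in all libraries was common, at 34.9% of all genes and 30% of the members, and so was not particular to these genes. In cell populations measured as a whole, fewer cells that transcribe a gene and less RNA per cell cannot be told apart.

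**Figure D1:**
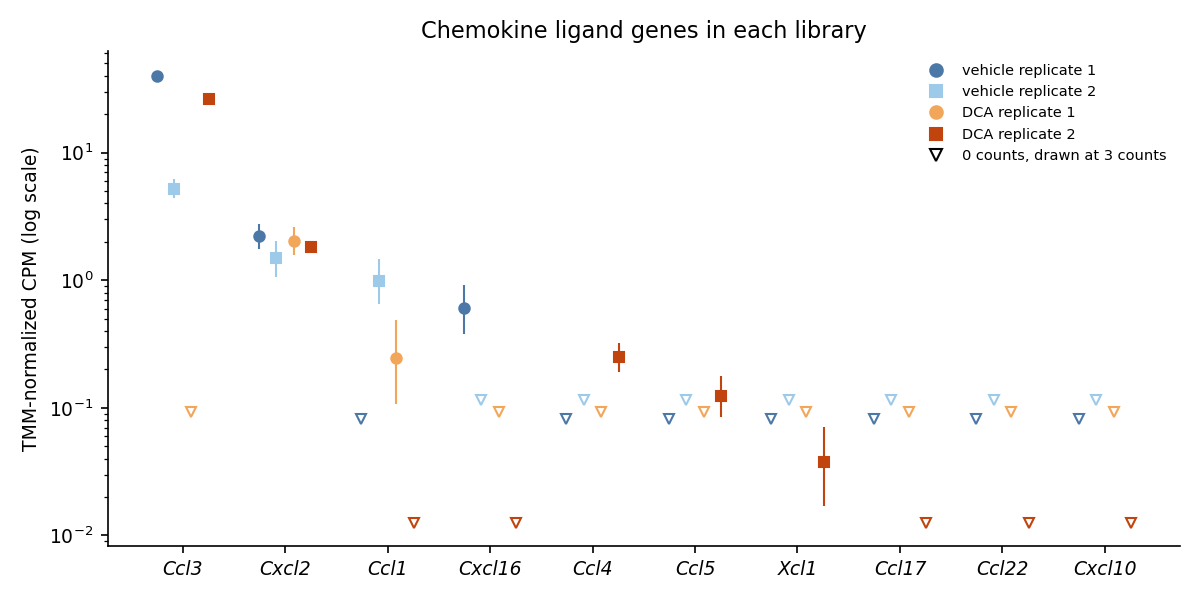
TMM-normalized CPM (log scale) of the 10 chemokine ligand genes in the 2 vehicle and 2 DCA libraries, with exact 95% Poisson intervals as bars. Open triangles are libraries with 0 counts, drawn at the level of 3 counts. Ccl3 runs from 0 counts in DCA replicate 1 to 39.8 CPM in vehicle replicate 1, Cxcl2 stays between 1.49 and 2.22 CPM, and no other member passes 1 CPM.

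Ccl3 encodes CCL3 (MIP-1α), which draws monocytes, T cells and eosinophils through CCR1 among other receptors. The gene (Entrez gene 20302) lies on chromosome 11 from 83647843 to 83649378, on the minus strand with 3 exons. With vehicle, 1456 counts were found in replicate 1 and 137 in replicate 2, and with DCA, 0 in replicate 1 and 6340 in replicate 2. Scaled to library size these were 39.8 CPM (95% Poisson interval 37.8 to 41.9), 5.24 CPM (4.40 to 6.19), 0 CPM and 26.4 CPM (25.7 to 27.03). A high and a low library were thus found within each treatment, and the treatments overlapped. The vehicle libraries differed 7.61-fold, and DCA replicate 2 was at least 284-fold higher than DCA replicate 1, taken at its limit of 3 counts.

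Few genes parted the DCA libraries as far as Ccl3 did. On log2(CPM + 1) the gap between the DCA libraries was 4.77 for Ccl3 and 0.41 for the median tested gene, and 3 of 11184 tested genes had a gap at least as large. The others were Trgc4, a T cell receptor γ constant region gene, at 52.7 CPM in DCA replicate 1 and 0 in DCA replicate 2, and Cth, an enzyme of cysteine synthesis, at 0.031 and 30.7 CPM. The gap of Ccl3 between the vehicle libraries was 2.71, which 5.41% of tested genes reached or passed, against a median gap of 0.56. Counts of 0 in at least 1 library occurred in 9.94% of tested genes, so a tested gene missing from a library was not particular to Ccl3.

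Il6 and Tnfaip3, genes induced by NF-κB, were high in the same libraries as Ccl3. Il6, which encodes the cytokine IL-6, stood at 52.1 CPM in vehicle replicate 1, 0.535 in vehicle replicate 2, 2.85 in DCA replicate 1 and 28.0 in DCA replicate 2. Tnfaip3, which encodes the NF-κB inhibitor A20, had 35.4 and 0.0764 CPM in the vehicle and 8.91 and 19.1 CPM in the DCA libraries. Vehicle replicate 1 and DCA replicate 2 were the highest libraries for all 3 genes, and the lowest library was DCA replicate 1 for Ccl3 and vehicle replicate 2 for Il6 and Tnfaip3. Il6 and Tnfaip3 were the only genes of a 14-gene NF-κB and activation list, 13 of them tested, with both of these libraries above both others, and 16.6% of all tested genes had this pair on top, a share like that of the list (15.4%). They were set beside Ccl3 after their values had been seen, and 4 libraries are too few for a correlation.

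**Figure D2:**
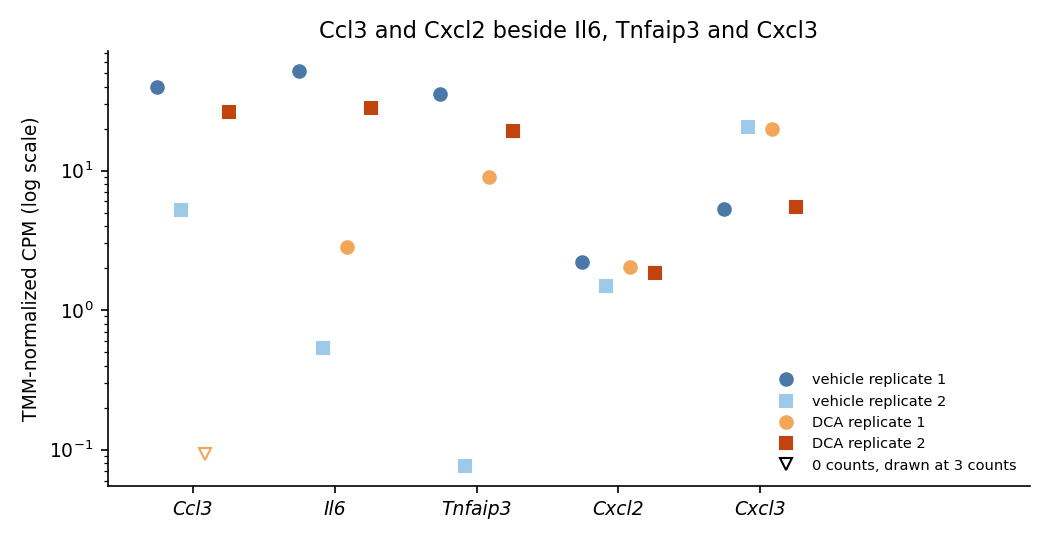
TMM-normalized CPM (log scale) of Ccl3, Cxcl2, Il6, Tnfaip3 and Cxcl3, each point 1 library, with the open triangle a library with 0 counts drawn at the level of 3 counts. Ccl3, Il6 and Tnfaip3 were highest in vehicle replicate 1 and DCA replicate 2, Cxcl3 was highest in vehicle replicate 2 and DCA replicate 1, and Cxcl2 stayed between 1.49 and 2.22 CPM.

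Ccl4 encodes CCL4 (MIP-1β), an attractant of monocytes and T cells whose gene (Entrez gene 20303) is the neighbour of Ccl3, on the plus strand of chromosome 11. It had 60 counts in DCA replicate 2, or 0.25 CPM (95% Poisson interval 0.19 to 0.321), and 0 in the other 3 libraries. At the depth of those libraries the level of DCA replicate 2 would give between 6.53 and 8.81 counts. Per kilobase of exon, Ccl3 was 91.0-fold above Ccl4 in DCA replicate 2, and it was at least 418-fold and at least 39.3-fold above it in vehicle replicates 1 and 2. In vehicle replicate 1, the library with the most Ccl3, Ccl4 had no count. The RefSeq model of Ccl4 runs from 83648624 to 83664683 and overlaps Ccl3 by 755 bases, whereas the GENCODE model does not, and the strand setting of the counting is not given in the sources used here, so the split of reads between the pair is uncertain.

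Cxcl2 encodes CXCL2 (MIP-2), a neutrophil attractant that acts through CXCR2. The gene (Entrez gene 20310) lies on chromosome 5 from 90903899 to 90905938, on the plus strand with 4 exons. It had 81 and 39 counts in the vehicle libraries and 66 and 442 in the DCA libraries. These were 2.22 CPM (95% Poisson interval 1.76 to 2.75) and 1.49 CPM (1.06 to 2.04) with vehicle, and 2.04 CPM (1.58 to 2.60) and 1.84 CPM (1.67 to 2.02) with DCA. Both DCA libraries lay between the vehicle libraries, and the highest library was 1.49-fold above the lowest. Gaps between replicates at least as large were seen in 64.2% of tested genes for vehicle and in 85.8% for DCA, so Cxcl2 differed less between replicates than most genes on log2(CPM + 1), a scale that narrows the gaps of genes at low levels.

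Compared within a library and per kilobase of exon, Ccl3 and Cxcl2 changed order. Ccl3 was 48.5-fold above Cxcl2 in vehicle replicate 1, 9.48-fold above it in vehicle replicate 2 and 38.7-fold above it in DCA replicate 2. In DCA replicate 1, Cxcl2 was at least 8.15-fold higher than Ccl3. Mean levels over the 4 libraries were 23.3 ± 24.2 CPM per kilobase for Ccl3 and 0.917 ± 0.151 CPM per kilobase for Cxcl2 (SD, n = 4 libraries of both treatments), so their order in a further library would not be certain from these values. Ccl3 made up 93.4% and 67.8% of the summed CPM of the 10 genes in the vehicle libraries and 0% and 92.1% in the DCA libraries. Without Ccl3, the sum lay between 2.25 CPM (DCA replicate 2) and 2.82 CPM (vehicle replicate 1), most of it Cxcl2.

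Ccl5 and Xcl1, like Ccl4, had counts in DCA replicate 2 alone. Ccl5 encodes CCL5 (RANTES), a ligand of CCR1 and CCR3, and had 30 counts there, or 0.125 CPM (95% Poisson interval 0.0842 to 0.178). Xcl1 encodes lymphotactin, the ligand of XCR1 on cross-presenting dendritic cells, and had 9 counts there, or 0.0374 CPM (0.0171 to 0.0711). At the depths of the other libraries these levels would give 3.26 to 4.40 counts of Ccl5 and 0.979 to 1.32 counts of Xcl1, so for Xcl1 the other libraries could not show whether the level differed. Thinned at random to the median total of the other libraries, DCA replicate 2 kept 5 counts of Ccl4, 4 of Ccl5 and 0 of Xcl1. Counts in DCA replicate 2 alone were found for 7.84% of all genes in the table. The Xcl1 locus overlaps another GENCODE gene, Gm20743, so its few counts are uncertain in origin.

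Ccl1 and Cxcl16 were found in shallower libraries and not in the deepest. Ccl1, a CCR8 ligand (Entrez gene 20290, chromosome 11 from 82176666 to 82179812), had 26 counts in vehicle replicate 2, or 0.994 CPM (95% Poisson interval 0.649 to 1.46), and 8 in DCA replicate 1, or 0.248 CPM (0.107 to 0.488). It had 0 counts in vehicle replicate 1 and in DCA replicate 2, the libraries with the most Ccl3. Cxcl16 encodes a membrane-bound chemokine, the ligand of CXCR6 (Entrez gene 66102, chromosome 11 from 70454389 to 70459984). It had 22 counts in vehicle replicate 1, or 0.602 CPM (0.377 to 0.911), and 0 in the other 3. Of all genes in the table, 1.61% had no count in DCA replicate 2 and over 20 counts in another library, a cutoff chosen after the values of these 2 genes had been seen. The Cxcl16 locus overlaps Zmynd15, so its few counts are also uncertain in origin.

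Ccl17 and Ccl22, both ligands of CCR4 and produced mainly by dendritic cells and macrophages under type 2 cytokines, had 0 counts in all 4 libraries. Cxcl10, an interferon-induced ligand of CXCR3, also had 0 counts in all 4. Their genes lie on chromosome 8 from 94809380 to 94812038 (Ccl17) and from 94745684 to 94751388 (Ccl22), and on chromosome 5 from 92346638 to 92348889 (Cxcl10, where Art3 overlaps). In DCA replicate 2, 0 of 244165712 counts allows up to 0.0125 CPM for each. Per kilobase of exon, Cxcl2 was at least 29.4-fold and at least 14.2-fold higher than Cxcl10 in the vehicle libraries, and at least 23.96-fold and at least 160.4-fold higher in the DCA libraries.

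No change with DCA was detected in Ccl3 or Cxcl2, the members that could be tested. Ccl3 was at 22.5 ± 24.5 CPM with vehicle and at 13.2 ± 18.6 CPM with DCA (SD, n = 2 libraries each), a log2 fold change of -0.77 as fitted by edgeR. On log2(CPM + 1) the difference was -1.61 with a standard error of 2.75. The p of Ccl3 was 0.725, and 0.999 after Benjamini-Hochberg adjustment over 11184 genes, in edgeR's quasi-likelihood test (two-sided). Cxcl2 was at 1.85 ± 0.513 CPM with vehicle and at 1.94 ± 0.145 CPM with DCA (SD, n = 2 each), a log2 fold change of 0.07 with a p of 0.971 and an adjusted p of 0.999 in the same edgeR test. Its difference on log2(CPM + 1) was 0.05 with a standard error of 0.19. The 95% interval of the log2(CPM + 1) difference from limma ran from -5.05 to 1.84 for Ccl3 and from -1.90 to 2.01 for Cxcl2, so large changes in either direction were compatible with these libraries for both genes. In exact permutation tests (two-sided), where 2 libraries against 2 cannot give less than 0.333, p was 0.667 for Ccl3 and 1 for Cxcl2. Leaving out vehicle replicate 1 gave Ccl3 a log2 fold change of 1.31, and leaving out DCA replicate 1 gave 0.23, so 1 library set its direction, and with the replicate number as a block it was -3.20. That of Cxcl2 was -0.19 when vehicle replicate 2 was left out and -0.02 when DCA replicate 1 was.

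Of the 10 members, 0 had libraries that did not overlap between treatments, against 17.0% of all genes in the table and 33.3% of tested genes (18.6% higher and 14.7% lower with DCA). An unadjusted p under 0.05 in edgeR's test was reached by 0 of the 2 tested members and by 4.27% of all tested genes (2.54% higher and 1.73% lower with DCA). At an adjusted p under 0.05, the test called 0 of 11184 genes (0.0%), so the lack of a call among the members does not set them apart. The median log2 fold change of all tested genes was 0.0080. Without a filter on low values, 7 members could be tested, and the lowest adjusted p among them was 0.954 in edgeR's test. DESeq2 called 126 genes at an adjusted p under 0.05, none of them a member.

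**Figure D3:**
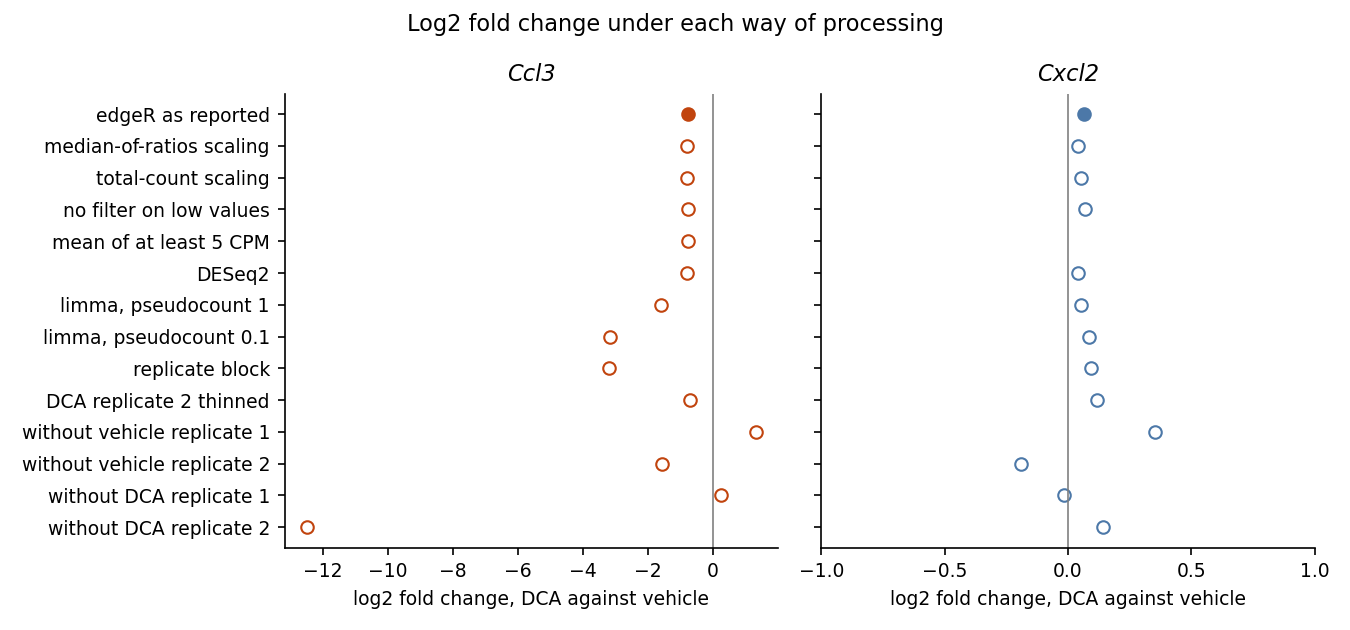
Log2 fold change (DCA against vehicle) of Ccl3 and Cxcl2 as reported (filled) and under each alternative (open), on separate axes. Ccl3 ran from -12.5 without DCA replicate 2, where the remaining DCA library has 0 counts and the fitted value is not a bound, to 1.31 without vehicle replicate 1, and Cxcl2 ran from -0.19 to 0.35 and was not tested at a mean of at least 5 CPM.

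Cxcr6, Ccr8 and Ccr1, receptors of these ligands, were higher per kilobase of exon than every one of the ligands in each library. Of 10 receptor genes, 7 were tested and 3 (Cxcr2, Cxcr3 and Ackr2) had 0 counts in all libraries, so neither the receptor of Cxcl2 nor that of Cxcl10 was found in these cells. Cxcr6, the receptor of Cxcl16, had 1660 and 2090 CPM in the vehicle and 2505 and 1569 CPM in the DCA libraries. Ccr8, the receptor of Ccl1, had 134 and 235 CPM in the vehicle and 228 and 155 CPM in the DCA libraries, and Ccr1, a receptor of Ccl3 and Ccl5, was at 336 and 339 CPM and at 383 and 264 CPM. For these 3 genes the DCA libraries lay between the vehicle libraries or on both sides of them, and the log2 fold changes were 0.12, 0.06 and -0.06. Per kilobase of exon and over all libraries, Cxcr6 averaged 1013 ± 223 CPM, Ccr8 160 ± 43.7 CPM and Ccr1 117 ± 17.4 CPM (SD, n = 4), against 23.3 CPM for Ccl3. Ccr4, Xcr1 and Ccr3 averaged 9.80, 6.96 and 0.955 CPM per kilobase. Of the 7 tested receptors, 3 were higher and 4 lower with DCA, 0 reached an unadjusted p under 0.05 in edgeR's test, and their median log2 fold change was -0.06.

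**Figure D4:**
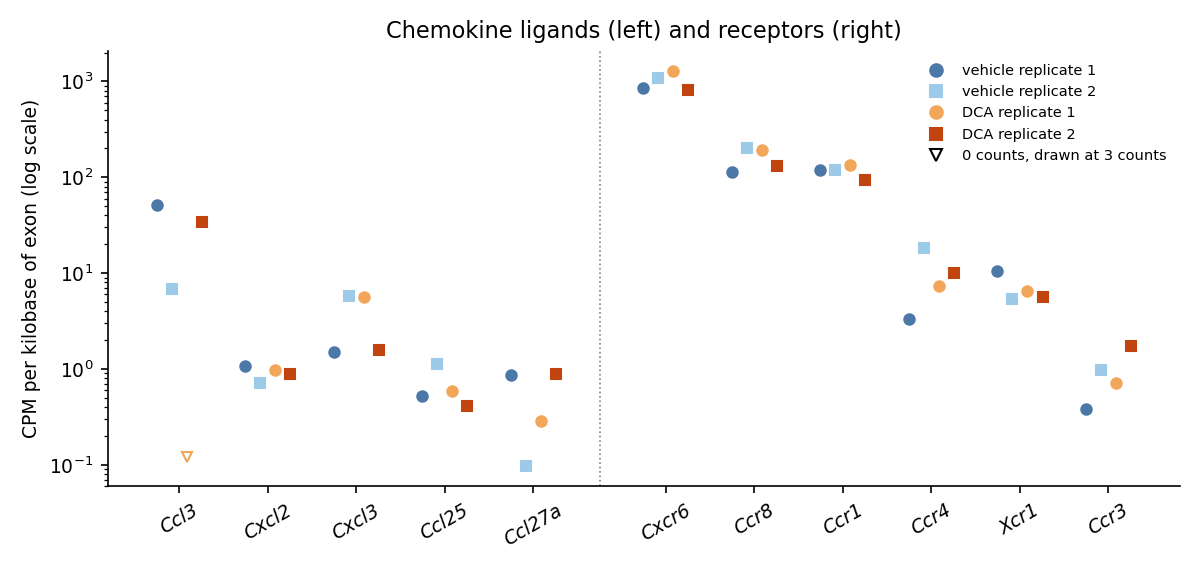
CPM per kilobase of exon (log scale) of the tested chemokine ligand genes (left of the dotted line) and 6 tested receptor genes (right), each point 1 library, with the open triangle a library with 0 counts drawn at the level of 3 counts. Cxcr6, Ccr8 and Ccr1 lie above every ligand in every library, and the ligand with the highest mean, Ccl3, spans from 0 counts to 52.0 CPM per kilobase.

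Of 28 other chemokine ligand genes, 16 had 0 counts in all libraries and 3 were tested, 1 higher and 2 lower with DCA and 0 with an unadjusted p under 0.05 in edgeR's test, with a median log2 fold change of -0.02. Cxcl3, a CXCR2 ligand next to Cxcl2, had 5.28 and 20.4 CPM in the vehicle and 19.9 and 5.49 CPM in the DCA libraries. It was low where Ccl3 was highest, and reads shared with Cxcl2 could lie under either name. Ccl25, which draws CCR9-bearing lymphocytes to the gut, had 3.94 and 8.41 CPM in the vehicle and 4.43 and 3.05 CPM in the DCA libraries. Ccl27a, a CCR10 ligand, was at 2.05 and 0.229 CPM and at 0.681 and 2.13 CPM. The monocyte attractant gene Ccl7 and the eotaxin genes Ccl11 and Ccl24 were among those at 0.

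Genes whose proteins store or cut chemokines were also examined. Of 6, 1 (Mmp9) was at 0 and 4 were tested, with 1 higher and 3 lower with DCA and a median log2 fold change of -0.45. Srgn, the proteoglycan core serglycin that holds chemokines in granules, had 2134 and 1863 CPM in the vehicle and 1697 and 1664 CPM in the DCA libraries. The shedding proteases of Cxcl16 were at 83.7 and 31.3 CPM (vehicle) and 40.3 and 32.8 CPM (DCA) for Adam10, and at 77.0 and 47.2 CPM (vehicle) and 28.7 and 30.7 CPM (DCA) for Adam17. Both DCA libraries lay below both vehicle libraries for Srgn and Adam17, as they did for 14.7% of all tested genes. Adam17 had a log2 fold change of -1.06, with a p of 0.0315 and an adjusted p of 0.999 in edgeR's test, and so did not pass. An unadjusted p under 0.05 with a lower level was reached by 1 of the 4 tested genes, and by 1.73% of all tested genes.

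Genes of the pathways linked to the absent ligands were uneven in level. Of 10 interferon-induced genes set beside Cxcl10, 7 were tested, with 3 higher, 4 lower, 0 with an unadjusted p under 0.05 in edgeR's test and a median log2 fold change of -0.19. Among the most abundant were Irf1 (247, 62.4, 141 and 99.5 CPM in vehicle replicates 1 and 2 and DCA replicates 1 and 2) and the GTPase gene Gbp2 (39.8, 27.02, 32.5 and 13.2 CPM). Others were close to absent, as Cxcl10 was. The antiviral genes Ifit1 and Ifit3 had 0 counts in both vehicle libraries and at most 0.743 CPM in a DCA library, and Ifng, which encodes interferon γ, had 5 counts in vehicle replicate 1 and 0 elsewhere. Isg15, a ubiquitin-like interferon-induced gene, had 2.76 and 0 CPM in the vehicle and 4.27 and 2.11 CPM in the DCA libraries. Of 8 genes of STAT6 and IRF4 signaling set beside Ccl17 and Ccl22, all were tested, with 4 higher, 4 lower, 0 with an unadjusted p under 0.05 and a median log2 fold change of -0.01. In the same order of libraries, Cish, a cytokine signaling inhibitor, was at 514, 416, 575 and 358 CPM, the AP-1 factor gene Batf at 321, 323, 254 and 256 CPM, and the type 2 cytokine gene Il13 at 283, 251, 178 and 391 CPM.

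Of 14 genes of NF-κB signaling and activation set beside Ccl1, Ccl3, Ccl4, Cxcl2 and Xcl1, 13 were tested, with 7 higher and 6 lower with DCA and a median log2 fold change of 0.27. An unadjusted p under 0.05 in edgeR's test was reached by 1 in the higher and 2 in the lower direction, against 2.54% and 1.73% of all tested genes. Nfkb2, an NF-κB subunit, had 44.9 and 55.0 CPM in the vehicle and 101 and 77.0 CPM in the DCA libraries (log2 fold change 0.84, p of 0.0346 and adjusted p of 0.999 in edgeR's test). Il1rl1, which encodes the IL-33 receptor ST2, had 833 and 877 CPM in the vehicle and 599 and 533 CPM in the DCA libraries (log2 fold change -0.60, edgeR p of 0.0229 and adjusted p of 0.999). Egr2, a transcription factor gene of activated lymphocytes, was at 0.383 and 8.14 CPM with vehicle and had 0 counts with DCA (edgeR p of 0.0193, adjusted p of 0.999). The inhibitor gene Nfkbia had 468 and 371 CPM in the vehicle and 626 and 584 CPM in the DCA libraries, and Nfkbiz, which encodes a nuclear NF-κB regulator, had 169 and 151 CPM and 137 and 121 CPM. None of the genes named here followed the order of the libraries seen for Ccl3.

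The cells carried the markers of ILC2s, with counts of all 12 genes of the list in at least 1 library and summed levels between 15695 and 20305 CPM, led by Il5 at 7727 to 12334 CPM. Of these, Thy1 was close to absent, at no more than 0.0547 CPM in 3 libraries and 4.24 CPM in DCA replicate 1. Macrophages are a known source of many chemokines, and their markers were examined in the same libraries. Of 10 macrophage and monocyte markers, 6 had 0 counts in all libraries (among them Csf1r, C1qa, C1qb, Cd14 and Fcgr1). The sum was 24.7 CPM in vehicle replicate 1, 23.998 in vehicle replicate 2, 7.31 in DCA replicate 1 and 10.2 in DCA replicate 2, nearly all of it Cd68. Both DCA libraries lay below both vehicle libraries for Cd68, with a log2 fold change of -1.47, a p of 0.0381 and an adjusted p of 0.999 in edgeR's test. Among all tested genes, 14.7% had both DCA libraries below both vehicle libraries, and 1.73% were lower with an unadjusted p under 0.05. Among the markers of other cell types, both DCA libraries also lay below both vehicle libraries for Trac (T cell) and Cd79b (B cell). They lay above both for Ccr7 (dendritic cell). Of the 12 ILC2 markers, 1 was higher (Il2ra) and 2 were lower (Klrg1 and Il1rl1) with DCA at an unadjusted p under 0.05 in the same test. The shares of all tested genes were 2.54% and 1.73%. Il1rl1 is the same gene counted above in the NF-κB and activation list. Dendritic cell markers summed to 60.5, 58.0, 97.6 and 67.7 CPM in vehicle replicates 1 and 2 and DCA replicates 1 and 2, led by Ccr7, with Itgax, Clec9a and Siglech at 0. Mast cell and basophil markers summed to between 159 and 363 CPM, nearly all of it Kit, with 3 of 7 at 0. T cell markers summed to between 15.9 and 34.7 CPM, led by Cd3g, with Cd4 and Cd8a of 8 genes at 0. B cell markers summed to 86.6 and 49.7 CPM in the vehicle and 51.4 and 64.0 CPM in the DCA libraries, led by Cd79b, with 2 of 6 at 0, Pax5 among them. This sum was highest in vehicle replicate 1 and DCA replicate 2, as Ccl3 was. So was Ighm, an immunoglobulin heavy chain gene, at 31.4, 2.41, 13.7 and 19.5 CPM in the same order of libraries. Cd79b was not, at 55.2, 47.3, 37.5 and 44.5 CPM. The same pair was on top for the ILC2 markers Gata3 and Il13, the epithelial marker Epcam and 16.6% of all tested genes. NK cell and ILC1 markers summed to 376 and 1935 CPM with vehicle and to 584 and 731 CPM with DCA, nearly all of it Gzma. Ncr1, Klrb1c and Klrk1 were at 0, and Prf1, Tbx21 and Eomes did not exceed 1.42 CPM in any library. Neutrophil and ILC3 markers, with 4 of 6 at 0 in each list, were led by Ly6g and Il17a and did not exceed 1.49 CPM in sum, and epithelial markers, led by Epcam and with 1 of 7 at 0, summed to between 8.29 and 14.3 CPM. The part of other cell types in the chemokine values was not tested.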

How the data were processed

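Large intestinal ILC2s treated with vehicle or DCA (2 libraries each) were profiled by RNA-Seq. Per the methods, cDNA of full length came from the SMART-Seq HT kit, cutadapt 1.9 trimmed the paired reads, and HISAT2 2.2.1 placed them on mm10. Their methods name DESeq2. The values the authors deposited are whole-number read counts per Entrez gene, although the name of the table refers to FPKM. The counting tool, its annotation and its strand setting are not given in the sources used here. Of 27179 rows, 1275 have no symbol and were kept under their identifiers, and 25275 identifiers matched RefSeq (GRCm38.p6). The 11184 genes averaging 1 CPM or more were tested with edgeR 4.0.16 in R 4.3.3 (TMM, quasi-likelihood test, Benjamini-Hochberg adjustment). The script was tested on simulated data, with a pass mark set only at a much lower spread between libraries than here (common dispersion 0.51). That check covers the code and does not show how well the test finds changes in these libraries. Levels per kilobase used GENCODE exon unions on GRCm38.

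The genes and lists were chosen with earlier results of these data known. Named are all 10 members, the 3 most abundant genes of each pathway list and those with an unadjusted p under 0.05, and the most abundant gene of each marker list. Some genes of these lists are not reported here by name. Other genes, the count of genes with vehicle replicate 1 and DCA replicate 2 on top, the ranking of gaps between replicates, the Ccl3 to Cxcl2 ratio, the sequence comparisons and the motifs were chosen after values or sequences had been seen. Same-numbered libraries did not deviate together (correlation 0.020), so the numbers were not taken as pairs. Alternatives were other scalings, no filter or 5 CPM, DESeq2 1.42.0, limma 3.58.1 with pseudocounts of 1 and 0.1, a replicate block, DCA replicate 2 thinned to 32102232 counts, each library left out, and another gene length.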

Additional observations from a re-analysis of the deposited data

How the results depend on the processing

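No setting with all 4 libraries changed the direction of Ccl3 or Cxcl2, and none of the 13 alternatives gave a member an adjusted p under 0.05. With all 4 libraries, the log2 fold change ran from -3.20 to -0.71 for Ccl3 (9 alternatives) and from 0.041 to 0.12 for Cxcl2 (8 alternatives). With each library left out in turn it ran from -12.5 to 1.31 for Ccl3 and from -0.19 to 0.35 for Cxcl2. The direction turned for Ccl3 when vehicle replicate 1 (1.31) or DCA replicate 1 (0.23) was left out, and for Cxcl2 when vehicle replicate 2 (-0.19) or DCA replicate 1 (-0.018) was. Without DCA replicate 2, Ccl3 had a p of 0.00569 and an adjusted p of 1 in edgeR's test, the one member past an unadjusted p of 0.05 (0 to 1 over the fits that leave out a library), where the remaining DCA library has 0 counts. A library left alone in its treatment was assumed to vary like the others. Adjusted p ran from 0.802 to 1 for Ccl3 and from 0.975 to 1 for Cxcl2, which had no value at a mean of at least 5 CPM. Over all genes, the number past an adjusted p of 0.05 was 0 in edgeR's test, 36 of 17706 without a filter (24 higher, 12 lower), 126 with DESeq2 (85 higher, 41 lower), 0 to 28 with a library left out (28 without vehicle replicate 1) and 0 otherwise, while an unadjusted p under 0.05 was reached by 478 genes in edgeR's test and by 120 to 1500 under the alternatives. The replicate block gave log2 fold changes of -3.20 for Ccl3 and 0.093 for Cxcl2 and 450 genes with an unadjusted p under 0.05. With the longest transcript in place of the exon union, Cxcl2 was at 1.71 rather than 0.917 CPM per kilobase, a change set by the length itself. The cause of the other changes was not tested. With 0 counts, depth limits the members to levels under 0.0125 to 0.115 CPM.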
